A study of Mus musculus with 9 samples.

Results

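Fabp4, Fabp5, Gpihbp1, Tcf15, Meox2, Cd36, Lpl and Angptl4 are the 8 genes described here, out of 37840 gene names listed over 9 libraries of mouse heart nuclei. They were taken by name as genes by which capillaries pass fatty acids to heart muscle. No measured value entered the rule, but earlier results of these data were known when the genes were chosen. Nuclei came from ventricles of C57BL6/J mice and were read by sNucDrop-seq, which captures each nucleus in a droplet with a barcoded bead. Of the 9 libraries, 3 were knockouts for both ERRα and ERRγ at postnatal days 9 to 10 (KO P10). Another 3 were controls of the same age (control P10) and 3 were controls at postnatal day 6 (control P6). The controls of both ages carried 1 intact ERRα allele and both ERRγ alleles (heterozygous and wild type), so every group lacked at least 1 ERRα allele. These receptors bind DNA and activate genes of fat oxidation and mitochondria. The labels name no Cre driver, no deleted exon and no number of animals per library, and give the sex as not determined. P-values therefore measure the spread between libraries, which may be technical.

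The heart burns fat that reaches it mostly inside lipoproteins. Lipoprotein lipase (Lpl) is made by muscle and other parenchymal cells, is carried to the capillary lumen by Gpihbp1 on endothelial cells, and there frees fatty acids from triglyceride. Angptl4 inactivates Lpl. Cd36 takes fatty acids up on endothelial cells and cardiomyocytes, and Fabp4 and Fabp5 bind them inside endothelial cells. Meox2 and Tcf15 are transcription factors that form a dimer in cardiac endothelium and drive Cd36 and Lpl there in mice.

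The genes differ in how much intron they offer to nuclear RNA, since exonic and intronic reads are counted together. Positions are those of GENCODE vM21 on GRCm38, the assembly that mm10 denotes. Fabp4 lies at chr3:10204088-10208576 on the minus strand and is annotated as exonic over its whole span of 4.49 kb, counting all its transcripts. Fabp5 lies near it on the plus strand at chr3:10012548-10016607. Gpihbp1 (chr15:75596628-75599481, plus strand) is the shortest, at 2.85 kb. Tcf15 is at chr2:152143561-152149097 on the plus strand and Angptl4 at chr17:33773750-33781830 on the minus strand. Lpl (chr8:68880491-68907448, plus strand) spans 27.0 kb. Meox2 (chr12:37108540-37179534, plus strand) and Cd36 (chr5:17781690-17888801, minus strand) span 71.0 and 107 kb, of which 96.7% and 96.6% are intronic. Meox2 holds the sense intronic gene Gm48617, and Fabp5 has an annotated processed pseudogene copy, Fabp5l2, so reads of these genes cannot be assigned with certainty. Levels of different genes are not compared here because the counts are not scaled to length.

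RefSeq promoter windows of GRCm38.p6, from 250 bases before to 50 after the start site, were at hand for 2 of the 8 genes, Cd36 and Meox2. The 250 bases before the start are shown because an ERR-binding motif was searched in both. Meox2 was also lower in KO P10 than in control P10 in all 5 sums tested, which come from the same libraries. The Cd36 window is chr5:17835897-17836146 on the minus strand, 52905 bases inside the annotated gene, so it belongs to an internal start. The Meox2 window is chr12:37108290-37108539 on the plus strand, directly before the annotated gene. Capitals mark the core motif of nuclear receptors, AGGTCA, or its reverse complement.
Cd36: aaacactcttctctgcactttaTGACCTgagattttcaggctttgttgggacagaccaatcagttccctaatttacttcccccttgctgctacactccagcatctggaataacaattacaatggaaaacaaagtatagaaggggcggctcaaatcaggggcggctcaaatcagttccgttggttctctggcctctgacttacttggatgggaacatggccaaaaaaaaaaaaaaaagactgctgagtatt
Meox2: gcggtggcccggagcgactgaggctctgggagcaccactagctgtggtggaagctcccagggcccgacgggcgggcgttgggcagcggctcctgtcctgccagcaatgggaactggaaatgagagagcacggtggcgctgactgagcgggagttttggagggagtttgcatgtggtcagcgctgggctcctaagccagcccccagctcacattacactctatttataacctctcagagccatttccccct
Neither window held the ERR element TCAAGGTCA, or a direct repeat of the core motif with 1 base between, on either strand, and the core motif is contained in both of these. Cd36 held 1 AGGTCA core motif, on the opposite strand 228 bases before the start, and Meox2 held none. Of 32851 promoter windows of the same length, 0.423% held the ERR element, 16.3% the core motif and 0.0396% the direct repeat. A match is a description and not a binding site, and its absence says only that these letters are not in these windows.

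Libraries held 2608067 to 5769630 UMIs (unique molecular identifiers, counts of captured RNA molecules). Of 33000 barcodes, 25307 nuclei were kept, of which 17949 fell into clusters named from marker genes that excluded the 8 members. The tested classes were 1813 endothelial-like nuclei, 1402 endocardial-like nuclei, 9446 cardiomyocyte-like nuclei and 4544 fibroblast-like nuclei, each with at least 50 nuclei in every library. The endothelial-like cluster was named from its endothelial markers, of which all 14 were raised, so they are no separate check of the name. The same markers were also found in the other tested classes. They gave 14716 of 2213738 UMIs in endothelial-like nuclei and 9118 of 1515761 UMIs in endocardial-like nuclei, which are close as shares. In fibroblast-like nuclei they gave 3423 of 3931634 UMIs, and in cardiomyocyte-like nuclei 3576 of 10618020 UMIs. No cluster was named adipocyte-like. The defining adipocyte marker Adipoq was at 0 in endothelial-like nuclei, and the 7 adipocyte markers together gave 11 of 2213738 UMIs there. The knockout was visible in cardiomyocyte-like sums, where Esrra averaged 19.7 ± 5.8 CPM in KO P10 and 98.9 ± 19.8 CPM in control P10 (CPM, UMIs scaled to library size; SD, n = 3 each). Esrrg averaged 764 ± 80.1 CPM in KO P10 and 1719 ± 381 CPM in control P10, and which exons were deleted was not given. KO P10 libraries 1 and 2 shared 465 barcodes whose UMI counts ran in parallel, and these were left out of library 2 in the class sums. Mitochondrial genes, left out of all sums, took 40.8% of the UMIs of control P10 library 1, against 0.888% to 17.8% in the others.

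Endothelial-like nuclei held the highest mean level of Fabp4, Gpihbp1, Tcf15, Meox2 and Cd36 among the 4 classes in each of the 3 groups. Fabp4 averaged 1949 ± 857 CPM there in KO P10, 2081 ± 1101 CPM in control P10 and 8500 ± 1742 CPM in control P6. Cardiomyocyte-like sums held 269 ± 51.3, 262 ± 95.9 and 271 ± 32.7 CPM of Fabp4 in KO P10, control P10 and control P6. For Gpihbp1, Tcf15 and Meox2, endothelial-like libraries lay above every library of the next class in each group. For Fabp4 they overlapped with endocardial-like libraries in control P10, and for Cd36 with cardiomyocyte-like libraries in KO P10 and control P10. Gpihbp1, which holds Lpl on the capillary surface, averaged 332 ± 28.2 CPM in KO P10, 295 ± 109 CPM in control P10 and 1118 ± 137 CPM in control P6 in endothelial-like nuclei. The next class was the endocardial-like one at 70.2 ± 33.2, 62.1 ± 12.1 and 91.2 ± 26.8 CPM in the same groups.

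The other 3 genes were spread differently over the classes. Fabp5 was highest in endocardial-like nuclei, the lining of the heart chambers, in every group. There it averaged 367 ± 105 CPM in KO P10, 350 ± 164 CPM in control P10 and 2114 ± 835 CPM in control P6, above every endothelial-like library of the same group. Lpl was found in all 4 classes. Endothelial-like nuclei were first at P10, above every library of the next class, the fibroblast-like one: 1274 ± 175 against 890 ± 89.2 CPM in KO P10 and 1378 ± 82.5 against 1013 ± 101 CPM in control P10. In control P6 its mean was 553 ± 138 CPM in cardiomyocyte-like, 550 ± 27.8 CPM in fibroblast-like and 544 ± 158 CPM in endothelial-like nuclei, which overlapped, and 232 ± 75.6 CPM in endocardial-like nuclei. Over all barcodes Lpl averaged 1490 ± 367 CPM in KO P10, 1584 ± 414 CPM in control P10 and 630 ± 90.3 CPM in control P6. These means were above those of each of the 4 classes, though libraries overlapped. The part of RNA from outside the classes in the order of Lpl was not tested. Angptl4 was low throughout, at 9.76 to 96.6 CPM on average, with endothelial-like nuclei first in each group but overlapping with the next class. Classes were built from clusters, so differences between classes are described and not tested.

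**Figure D1:**
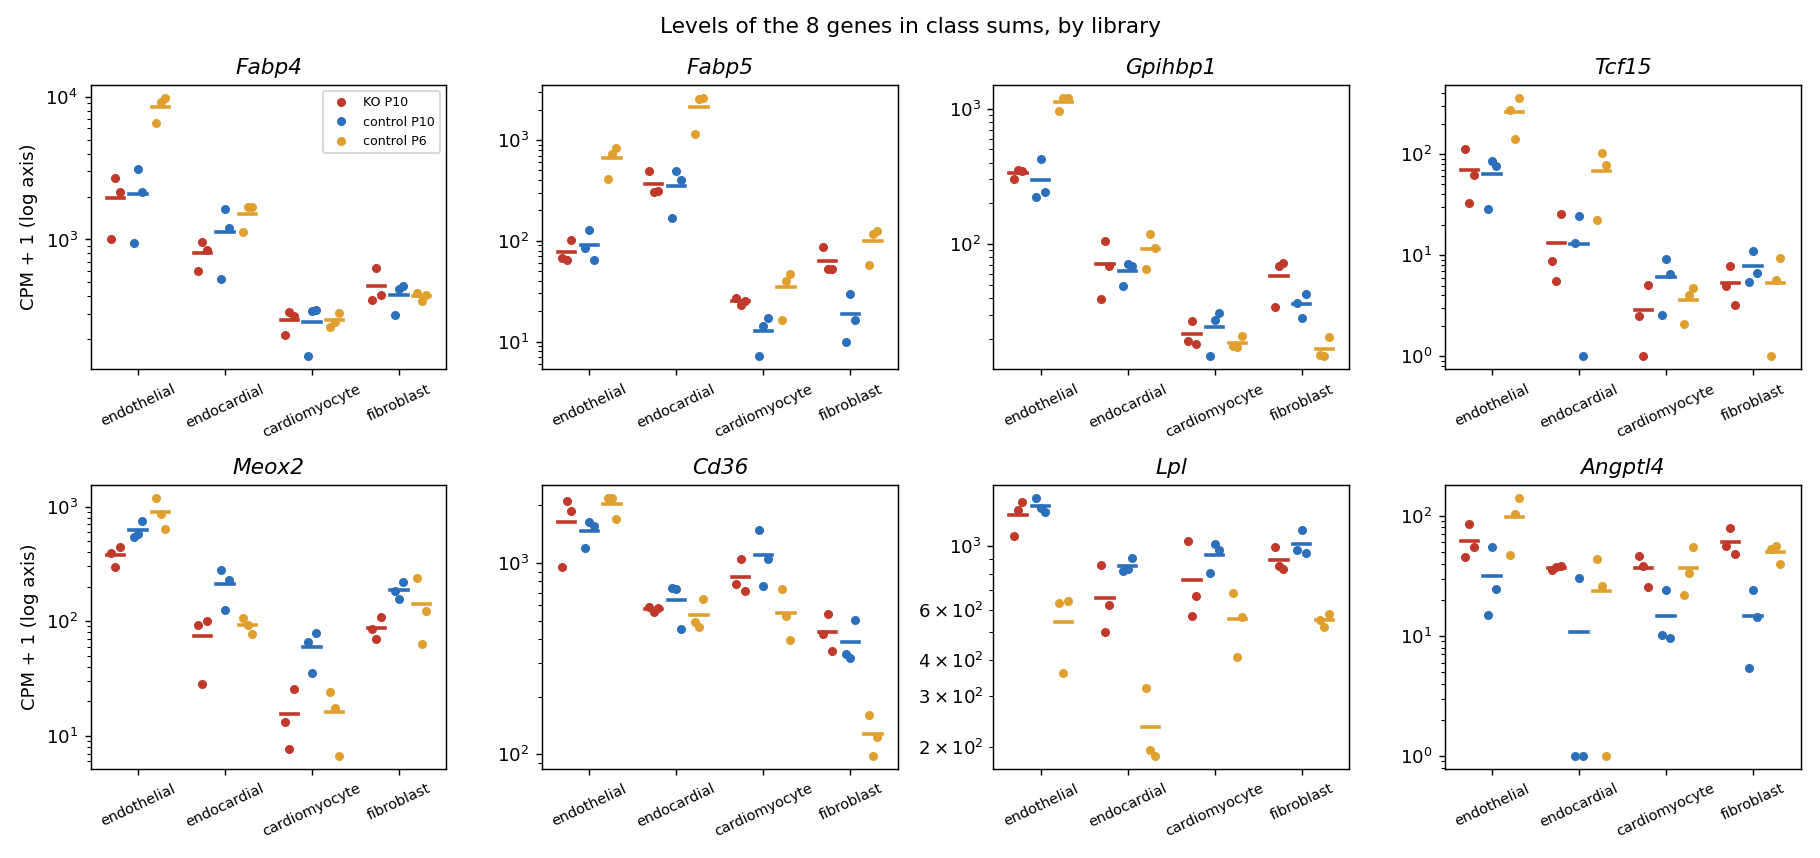
Level of each gene in sums over the nuclei of a class, as CPM + 1 on a log axis. Points are libraries, bars are means of 3 libraries, and the groups are KO P10, control P10 and control P6 from left to right within each class. Fabp4, Gpihbp1, Tcf15, Meox2 and Cd36 are highest in endothelial-like sums, Fabp5 in endocardial-like sums, and Lpl lies between 185 and 1469 CPM in every class and library.

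Shares of single nuclei were counted from the same UMIs as the class sums, so they are no separate check. After thinning each nucleus to 500 UMIs, 54.4% of endothelial-like nuclei held a Fabp4 UMI in KO P10, 56.2% in control P10 and 84.3% in control P6. Without thinning the shares were 71.5% in KO P10, 74.7% in control P10 and 91.0% in control P6. In cardiomyocyte-like nuclei the thinned shares of Fabp4 were 12.9%, 12.4% and 12.8% in KO P10, control P10 and control P6. The part of RNA from other cells in these shares was not tested. Median depths were 715.5, 874 and 807 UMIs in endothelial-like and 950, 1009 and 893 UMIs in cardiomyocyte-like nuclei of those groups. Gpihbp1 was found in 15.2%, 14.4% and 35.6% of endothelial-like nuclei of KO P10, control P10 and control P6 after thinning, and in at most 1.5% of cardiomyocyte-like nuclei in any group. Over all groups, thinned endothelial-like nuclei held 2 or more of the 8 genes in 66.9% of cases. The share was 25.5% in pericyte-like, 24.8% in endocardial-like, 16.0% in cardiomyocyte-like and 15.0% in fibroblast-like nuclei.

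With age, the fatty acid carriers and the Lpl anchor fell in endothelial-like nuclei of controls while Lpl rose. Of the 8 genes, 1 was higher and 5 were lower in control P10 than in control P6 at an adjusted p under 0.05. Of all 6083 genes tested in this class, 26.2% passed that threshold, 13.5% higher and 12.7% lower. The median log2 fold change of the 8 genes was -1.58, against 0.00 over all genes tested. All tests here are edgeR's quasi-likelihood test, two-sided, with Benjamini-Hochberg adjustment over all genes tested.

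Fabp4 had 943, 3139 and 2162 CPM in the control P10 libraries, against 6531, 9132 and 9839 CPM in the control P6 libraries. Every control P10 library was below every control P6 library, and the log2 fold change was -2.01 ± 0.40 (SE; adjusted p = 0.000486). Fabp5 had 83.2, 126 and 62.7 CPM in control P10, against 409, 732 and 824 CPM in control P6. It fell furthest of the 8, by 2.80 ± 0.33 on the log2 scale (adjusted p = 1.62e-06), again with no overlap. Gpihbp1 had 222, 421 and 243 CPM in control P10, against 959, 1201 and 1193 CPM in control P6. The groups lay apart, with a log2 fold change of -1.87 ± 0.30 (adjusted p = 3.63e-05). The transcription factor Tcf15 had 27.7, 83.7 and 75.8 CPM in control P10, against 274, 141 and 359 CPM in control P6. These values rest on 2 to 95 UMIs per library, and the log2 fold change was -1.82 ± 0.35 (adjusted p = 0.00033).

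Lpl moved the other way. It had 1469, 1354 and 1309.5 CPM in endothelial-like sums of control P10, against 631, 361 and 640 CPM in control P6. All control P10 libraries were above all control P6 libraries, with a log2 fold change of 1.33 ± 0.30 (adjusted p = 0.00141). Angptl4 had 13.9, 54.2 and 23.5 CPM in control P10, from 1, 22 and 9 UMIs, against 46.1, 103 and 141 CPM in control P6. The groups overlapped, and its log2 fold change of -1.34 ± 0.44 (adjusted p = 0.025) lost the call under 7 of 18 alternatives. Meox2, the partner of Tcf15, had 541, 574 and 740 CPM in control P10 and 1196, 868 and 635 CPM in control P6, with a log2 fold change of -0.53 ± 0.29 (adjusted p = 0.18). Cd36 averaged 1463 ± 236 CPM in control P10 and 2019 ± 283 CPM in control P6 with no overlap, with a log2 fold change of -0.46 ± 0.32 (adjusted p = 0.298). Neither passed the threshold.

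**Figure D2:**
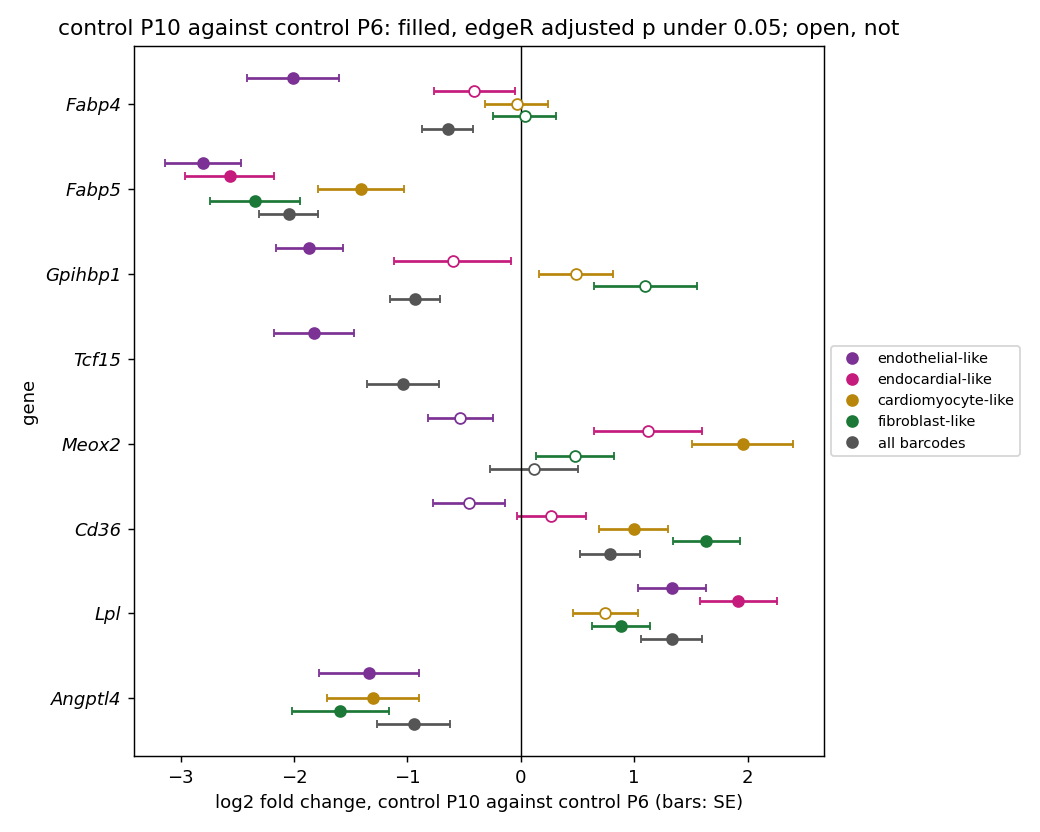
Log2 fold change of each gene in control P10 against control P6, with its SE, in 4 classes and in sums over all barcodes; filled points passed an edgeR adjusted p of 0.05. Fabp4, Gpihbp1 and Tcf15 are well below 0 in endothelial-like sums, Fabp5 is below 0 in every sum, and Lpl is above 0 in every sum; missing points were too low to be tested.

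Several measures of the libraries moved with age in the same sums. The 14 endothelial markers took 0.467% to 0.568% of the UMIs of endothelial-like sums in control P10, against 0.76% to 0.92% in control P6. Ttn, the giant sarcomere protein of cardiomyocytes, took 0.619% to 1.45% in control P10 and 0.136% to 0.196% in control P6, so more muscle RNA was found in these droplets at P10. Ribosomal protein genes took 0.466% to 0.983% in control P10 and 2.03% to 2.6% in control P6. Scaled to the endothelial markers, Fabp4 fell by 1.49 on the log2 scale (adjusted p = 0.00653), Fabp5 by 2.29 (adjusted p = 3.43e-05), Gpihbp1 by 1.33 (adjusted p = 0.00313) and Tcf15 by 1.32 (adjusted p = 0.0109). On that scale Lpl rose by 1.92 (adjusted p = 0.000159), Angptl4 was no longer called, and Meox2 and Cd36 had log2 fold changes of 0.05 and 0.11, with the sign turned. This scaling covers only the share of the markers. The part of the ribosomal and Ttn shifts in the age results was not tested.

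Lpl was also abundant outside the classes. In droplets poor in Malat1, an RNA kept in nuclei, it reached 2934 CPM in control P10 and 1455 CPM in control P6. Barcodes under 500 UMIs held 2149 CPM of Lpl in control P10 and 673 CPM in control P6. The part of such RNA in the rise of Lpl in endothelial-like sums was not tested. In the same Malat1-poor droplets Fabp4 was 1254 CPM in control P10 and 1126 CPM in control P6, and Gpihbp1 was 94.8 CPM in control P10 and 79.0 CPM in control P6. Xist, the RNA of female cells, was found in endothelial-like sums of 1 of 3 control P10 libraries (85 UMIs, library 1) and in those of all 3 control P6 libraries (425 to 611 UMIs). The part of sex in the age comparison was not tested.

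**Figure D3:**
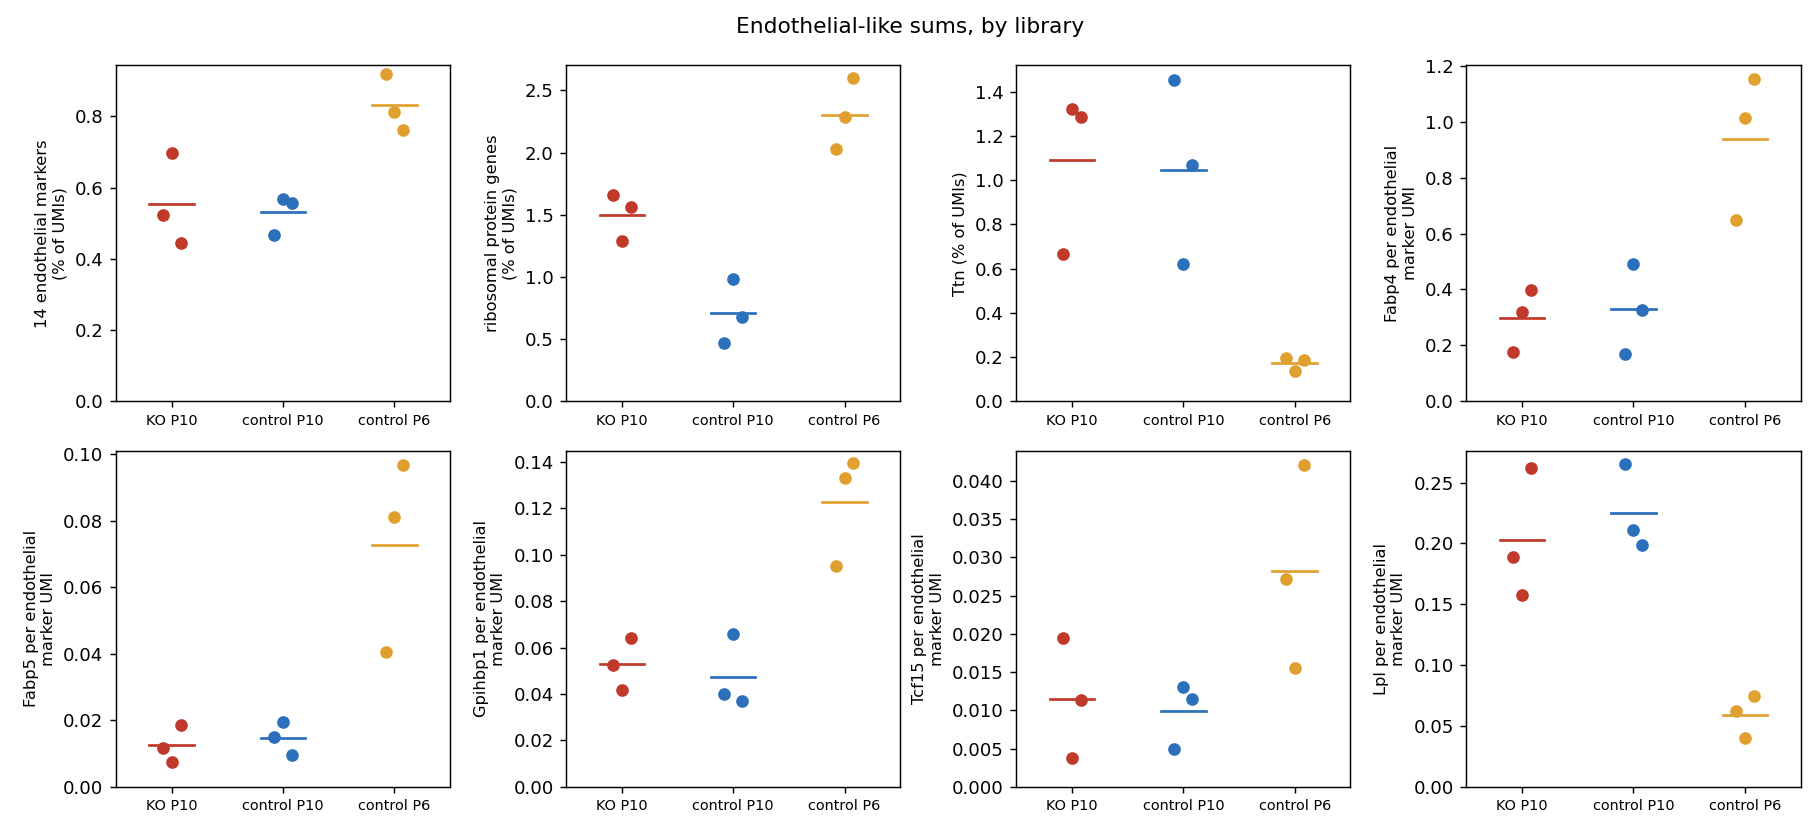
Endothelial-like sums of each library: shares of UMIs taken by 14 endothelial markers, ribosomal protein genes and Ttn, and UMIs of 5 of the genes per endothelial marker UMI. Points are libraries and bars are means of 3, with KO P10, control P10 and control P6 from left to right; Fabp4 lies at 0.17 to 0.49 per marker UMI in control P10 and 0.648 to 1.15 in control P6.

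Fabp4 and Gpihbp1 were not called with age in cardiomyocyte-like or fibroblast-like sums. In cardiomyocyte-like sums 2 of 7 members tested rose and 2 fell with age, where 17.2% of 10371 genes were called (8.12% higher and 9.03% lower). Cd36 averaged 1097 ± 365 CPM in control P10 and 550 ± 168 CPM in control P6 (log2 fold change 1.00 ± 0.31, adjusted p = 0.0332). Meox2 averaged 58.8 ± 21.9 CPM in control P10 and 15.1 ± 8.8 CPM in control P6 (log2 fold change 1.96 ± 0.44, adjusted p = 0.00676). Endothelial markers took 0.0329% to 0.0534% of these sums in control P10 and 0.0175% to 0.0201% in control P6, and their part in the rise of Meox2 was not tested. Fabp5 fell by 1.41 ± 0.38 on the log2 scale (adjusted p = 0.0177) and Angptl4 by 1.30 ± 0.41 (adjusted p = 0.0358), both with overlapping libraries. Of 17 alternatives, 5 lost the call for Cd36, 4 that for Angptl4 and 3 that for Fabp5, and each of the 3 lost it without control P6 replicate 2, control P6 replicate 3 or control P10 replicate 1. Cd36 and Angptl4 also lost it without control P10 replicate 3. Different clusters made up the class: cluster 4 held 57.9% of its nuclei in control P10 and 8.66% in control P6, and cluster 5 held 41.0% in control P10 and 91.1% in control P6. Levels within clusters were pooled over libraries, with no replicate check. Within cluster 5 Meox2 was 49.4 CPM in control P10 and 15.1 CPM in control P6, and Cd36 was 765 CPM in control P10 and 508 CPM in control P6. In cluster 4 Cd36 was 856 CPM in control P10 and 848 CPM in control P6.

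In fibroblast-like sums 13.6% of 8570 genes were called (6.76% higher and 6.8% lower), and 2 of 7 members tested rose and 2 fell. Cd36 averaged 385 ± 104 CPM in control P10 and 126 ± 31.5 CPM in control P6 (log2 fold change 1.64 ± 0.29, adjusted p = 0.00138). In the same sums Ttn took 0.354% to 0.704% of UMIs in control P10 and 0.0735% to 0.11% in control P6, and endothelial markers 0.0977% to 0.121% in control P10 and 0.0475% to 0.0727% in control P6. Their part in these results was not tested. Lpl averaged 1013 ± 101 CPM in control P10 and 550 ± 27.8 CPM in control P6 (log2 fold change 0.88 ± 0.25, adjusted p = 0.0264). Fabp5 fell by 2.34 ± 0.40 on the log2 scale (adjusted p = 0.000903) and Angptl4 fell by 1.59 ± 0.43 (adjusted p = 0.0176). Lpl and Angptl4 lost the call in these sums without control P6 replicate 2 or control P10 replicate 3, Lpl also without control P6 replicate 3 and Angptl4 also without control P10 replicate 1. In endocardial-like sums 10.1% of 4302 genes were called (4.9% higher and 5.23% lower), and Fabp5 and Lpl were the 2 called of 6 members tested. Fabp5 had 169, 486 and 396 CPM there in control P10, against 1150, 2576 and 2616 CPM in control P6. Those groups did not overlap, and the log2 fold change was -2.57 ± 0.39 (adjusted p = 0.000841). Lpl had 819, 832 and 904 CPM in endocardial-like sums of control P10, against 320, 193 and 185 CPM in control P6, a rise of 1.92 ± 0.34 on the log2 scale (adjusted p = 0.00219).

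The difference between endothelial-like and cardiomyocyte-like sums in the effect of age was itself tested as an interaction. It passed the threshold for 6 of the 8 genes, in a fit where 9.9% of 10306 genes did so. The age effect, in log2, was lower in endothelial-like than in cardiomyocyte-like sums by 2.91 ± 0.61 for Tcf15 (adjusted p = 0.00013), by 2.44 ± 0.29 for Meox2 (adjusted p = 2.67e-13) and by 2.43 ± 0.31 for Gpihbp1 (adjusted p = 1.79e-11). Tcf15 was too low to be tested in cardiomyocyte-like sums alone, with 24 UMIs in control P10 and 9 in control P6. Its difference therefore cannot say how age acts on Tcf15 in cardiomyocyte-like nuclei. The differences were -2.03 ± 0.20 for Fabp4 (adjusted p = 4.99e-18), -1.54 ± 0.36 for Fabp5 (adjusted p = 0.000659) and -1.40 ± 0.20 for Cd36 (adjusted p = 9.7e-10). Lpl differed by 0.55 ± 0.20 (adjusted p = 0.0596) and Angptl4 by -0.19 ± 0.47 (adjusted p = 0.876), which did not pass. Meox2 thus had a higher level at P10 in cardiomyocyte-like sums and a value below 0 in endothelial-like sums, and the difference between them passed the test. The 14 endothelial markers, as a share of UMIs, also moved in opposite directions with age. In endothelial-like sums they took 0.467% to 0.568% in control P10 and 0.76% to 0.92% in control P6. In cardiomyocyte-like sums they took 0.0329% to 0.0534% in control P10 and 0.0175% to 0.0201% in control P6. The part of this shift in the 6 differences was not tested.

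Summed over all barcodes of a library, 7 of the 8 genes were called with age, 2 higher and 5 lower, where 23.9% of 15841 genes were called (10.8% higher and 13.1% lower). Leaving out any 1 control library left a count of 3 to 5, and leaving the shared barcodes out of KO P10 library 2 left 3. Fabp4 fell by 0.64 ± 0.23 on the log2 scale (adjusted p = 0.0499), less than in endothelial-like sums. In such sums fewer cells of a type and less RNA per cell cannot be told apart. Endothelial-like nuclei made up 4.05%, 8.86% and 11.0% of kept nuclei in control P10, against 16.7%, 8.09% and 7.03% in control P6.

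In KO P10 hearts, none of the 8 genes was called in endothelial-like nuclei, where loss of the receptors themselves was not tested. Of all 6083 genes tested there, 2.81% were called in KO P10 against control P10 (1.79% higher and 1.02% lower). At an unadjusted p under 0.05 there was 1 member, Meox2, and with DESeq2 none was called at an adjusted p of 0.05. The median log2 fold change of the 8 was -0.11, against -0.01 over all genes tested. The SEs of the 8 log2 fold changes ran from 0.29 to 0.55, and changes of that size were not detectable with these libraries. Changes above 1 SE were missed too, as Meox2 at -0.73 ± 0.31 had an adjusted p of 0.237. Angptl4 at 0.74 ± 0.55 had an adjusted p of 0.563. Fabp4 had 1011, 2690 and 2145 CPM in KO P10, against 943, 3139 and 2162 CPM in control P10, and the groups overlapped (log2 fold change -0.11 ± 0.39, adjusted p = 0.933). Gpihbp1 had 299.9, 351 and 346 CPM in KO P10, inside the control P10 range of 222 to 421 CPM (log2 fold change 0.12 ± 0.32, adjusted p = 0.902). Lpl averaged 1274 ± 175 CPM in KO P10 and 1378 ± 82.5 CPM in control P10, and Cd36 averaged 1643 ± 607 CPM in KO P10 and 1463 ± 236 CPM in control P10. Endothelial-like nuclei numbered 84, 134 and 144 in the KO P10 libraries and 80, 326 and 377 in the control P10 libraries. They were 2.43%, 4.54% and 4.57% of kept nuclei in KO P10, against 4.05%, 8.86% and 11.0% in control P10.

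Meox2 was lower in KO P10 than in control P10 in every sum tested and was called in 2 of the 5. Libraries did not overlap in any of them, but the share of all genes without overlap was not counted. The 5 sums come from the same libraries, so they are not separate checks. The sum over all barcodes also holds the nuclei of the tested classes and the barcodes shared by KO P10 libraries 1 and 2. In endothelial-like sums Meox2 had 389, 298 and 438 CPM in KO P10, against 541, 574 and 739.7 CPM in control P10. The log2 fold change was -0.73 ± 0.31 and did not pass (adjusted p = 0.237). In cardiomyocyte-like sums it had 12.2, 6.68 and 24.3 CPM in KO P10, from 8, 9 and 24 UMIs, against 64.6, 34.6 and 77.1 CPM in control P10. This fall of 2.04 ± 0.46 on the log2 scale was called (adjusted p = 0.00694) and was lost only without control P10 replicate 3 (adjusted p = 0.051). In fibroblast-like sums it averaged 86.3 ± 19.2 CPM in KO P10 and 185 ± 32.0 CPM in control P10 (log2 fold change -1.08 ± 0.35, adjusted p = 0.0987). In endocardial-like sums it averaged 72.6 ± 39.4 CPM in KO P10 and 209 ± 78.4 CPM in control P10 (log2 fold change -1.46 ± 0.41, adjusted p = 0.0967). Over all barcodes it fell by 1.53 ± 0.40 on the log2 scale (adjusted p = 0.0184).

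Cluster 6 held 47.0% of cardiomyocyte-like nuclei in KO P10 and 1.09% in control P10. It was uneven over KO P10 libraries 1 to 3, with 52 of 535, 800 of 1228 and 452 of 1010 such nuclei. Within clusters 4 and 5, pooled over libraries and with no replicate check, Meox2 had a lower level in KO P10. The part of the clusters in the result was not tested. In cluster 4 it was 17.3 CPM in KO P10 (95% Poisson interval 9.2 to 29.5, counting error only) and 44.2 CPM in control P10 (36.9 to 52.4). In cluster 5 it was 12.8 CPM in KO P10 (6.62 to 22.4) and 49.4 CPM in control P10 (39.7 to 60.7). Malat1-poor droplets held 25.9 CPM of Meox2 in KO P10 and 81.9 CPM in control P10, and the part of free RNA in the class sums was not tested. The difference between endothelial-like and cardiomyocyte-like sums in the knockout effect on Meox2 was 1.16 ± 0.34 (log2; adjusted p = 0.097). No member passed that interaction test at an adjusted p of 0.05 with edgeR, 2 had an unadjusted p under 0.05 (Meox2 and Fabp5), and 0.63% of 9047 genes were called.

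Angptl4, the Lpl inhibitor, and Fabp5 were higher in KO P10 in stroma. In fibroblast-like sums these were the 2 called of 7 tested, where 3.76% of 8570 genes were called (2.19% higher and 1.56% lower). Angptl4 had 54.6, 78.7 and 46.7 CPM in KO P10, from 28, 23 and 21 UMIs, against 4.44, 23.0 and 13.3 CPM in control P10, from 1, 16 and 7 UMIs. The groups did not overlap, and the log2 fold change was 1.86 ± 0.41 (adjusted p = 0.012). Fabp5 had 85.8, 51.3 and 51.1 CPM in KO P10, against 8.89, 28.7 and 15.2 CPM in control P10 (log2 fold change 1.67 ± 0.41, adjusted p = 0.0251). Without control P10 replicate 3 neither passed, at adjusted p = 0.0898 for Angptl4 and 0.158 for Fabp5.

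In cardiomyocyte-like sums Meox2 and Angptl4 were the 2 members called of 7 tested, where 14.3% of 10371 genes were called (7.34% higher and 6.91% lower). Angptl4 had 45.7, 37.1 and 24.3 CPM in KO P10, against 9.23, 23.1 and 8.64 CPM in control P10. Its rise of 1.28 ± 0.41 on the log2 scale (adjusted p = 0.0467) lost the call under 7 of 17 alternatives. Fabp5 averaged 24.2 ± 1.8 CPM in KO P10 and 11.8 ± 5.1 CPM in control P10 (log2 fold change 0.91 ± 0.40, adjusted p = 0.141). In endocardial-like sums no member of 6 tested was called by edgeR or DESeq2, 1 (Meox2) had an unadjusted p under 0.05, and 1.02% of 4302 genes were called (0.651% higher and 0.372% lower).

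Over all barcodes 3 of the 8 genes were called, where 16.3% of 15841 genes were (9.47% higher and 6.86% lower). These sums kept the 465 barcodes shared by KO P10 libraries 1 and 2, so those 2 libraries are not fully separate there. Angptl4 had 73.5, 56.1 and 31.3 CPM in KO P10, against 24.6, 25.2 and 13.04 CPM in control P10 (log2 fold change 1.36 ± 0.32, adjusted p = 0.00979). Fabp5 had 120, 78.5 and 75.8 CPM in KO P10, against 37.1, 56.1 and 34.9 CPM in control P10 (log2 fold change 1.09 ± 0.26, adjusted p = 0.0107). The third was Meox2, as given above, and none of the 3 passed without control P10 replicate 3. Ribosomal protein genes moved with these values: in fibroblast-like sums they took 1.09% to 1.56% of UMIs in KO P10 and 0.433% to 0.854% in control P10. In cardiomyocyte-like sums the share was 0.549% to 1.17% in KO P10 and 0.17% to 0.414% in control P10. Malat1-poor droplets held 70.8 CPM of Angptl4 in KO P10 and 31.7 CPM in control P10, and 105.6 CPM of Fabp5 in KO P10 and 53.6 CPM in control P10. In fibroblast-like sums cardiomyocyte markers took 2.72% to 4.0% of UMIs in KO P10 and 1.68% to 2.53% in control P10, and hemoglobin genes 0.454% to 1.96% in KO P10 and 0.182% to 0.283% in control P10. Hemoglobin genes took 0.295% to 0.981% of cardiomyocyte-like sums in KO P10 and 0.123% to 0.227% in control P10. The part of these in the result was not tested. The knockout and age comparisons share the control P10 libraries.

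**Figure D4:**
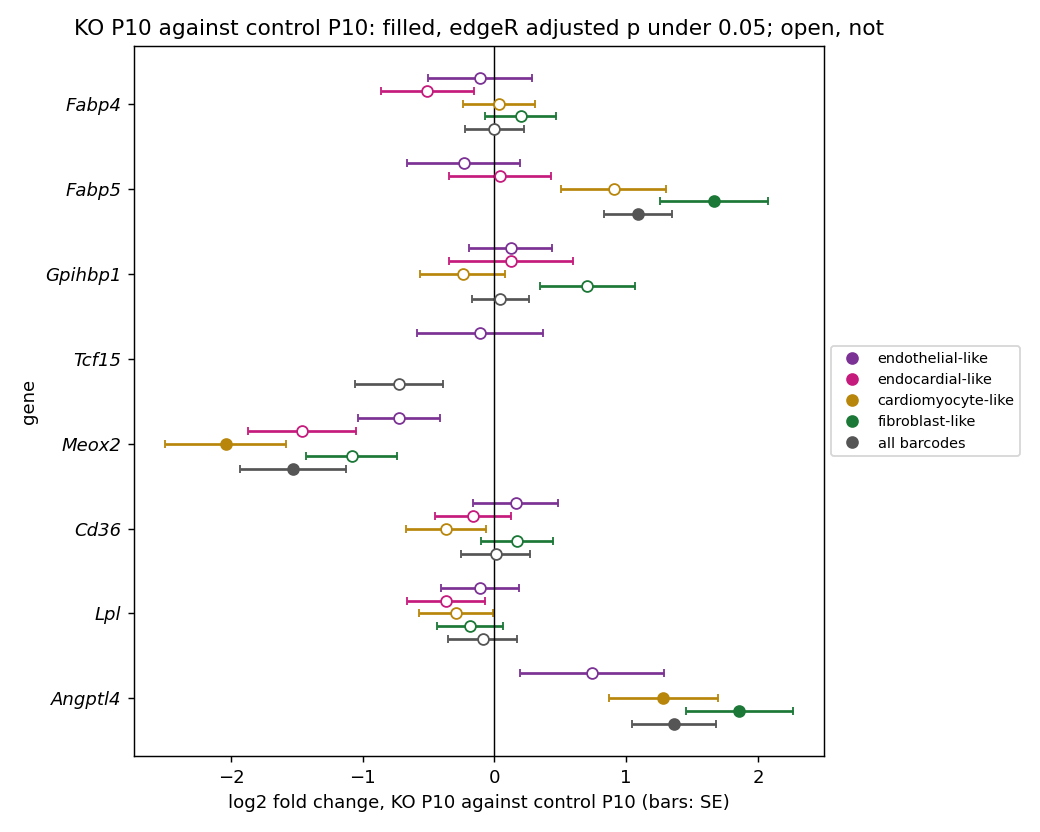
Log2 fold change of each gene in KO P10 against control P10, with its SE, in 4 classes and in sums over all barcodes; filled points passed an edgeR adjusted p of 0.05. Meox2 lies below 0 in all 5 sums and Angptl4 above 0 in the 4 where it was tested, while Fabp4, Gpihbp1, Cd36 and Lpl were called in none.

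Around these genes, 3 lists of the same pathway were counted in endothelial-like sums. Of 11 tested genes of lipolysis at the capillary wall, 2 rose and 1 fell with age, beside 26.2% of all genes called. The lipoprotein receptor Vldlr averaged 273 ± 75.6 CPM in control P10 and 57.4 ± 0.98 CPM in control P6 (log2 fold change 2.16 ± 0.31, adjusted p = 1.03e-05). The proprotein convertase Pcsk6 rose by 2.23 ± 0.36 on the log2 scale (adjusted p = 4.08e-05). Hspg2, the basement membrane heparan sulfate proteoglycan perlecan, fell by 0.78 ± 0.28 (adjusted p = 0.0414). The list's median log2 fold change was 0.50, against 0.00 over all genes.

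Of 7 tested genes of fatty acid entry and activation, 1 rose and 2 fell with age, beside 26.2% of all genes called. The list's median was -0.40, against 0.00 over all genes. Acsl1, which activates fatty acids to acyl-CoA, rose by 1.17 ± 0.32 (log2; adjusted p = 0.0068). The caveola genes Cav1 and Cav2 fell by 0.90 ± 0.32 (adjusted p = 0.0366) and 0.98 ± 0.34 (adjusted p = 0.0338).

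Of 20 tested regulators of endothelial fatty acid uptake, 4 rose and 8 fell with age, beside 26.2% of all genes called. Their median was -0.12, against 0.00 over all genes. The tip-cell ligand genes Apln and Dll4 fell by 2.19 ± 0.35 (adjusted p = 4.1e-05) and 1.65 ± 0.40 (adjusted p = 0.00301). The apelin receptor Aplnr and the shear-responsive factor Klf2 fell by 1.11 ± 0.31 (adjusted p = 0.00902) and 1.15 ± 0.27 (adjusted p = 0.0022). The metabolic regulators Ppargc1a and Ppara were higher by 2.57 ± 0.45 (adjusted p = 0.000121) and 2.26 ± 0.41 (adjusted p = 0.000152). Ppargc1a was uneven between libraries, at 678 ± 614 CPM in control P10 and 101 ± 31.9 CPM in control P6. Gata4 rose by 1.71 ± 0.33 (adjusted p = 0.000295) and Hif1a by 0.82 ± 0.29 (adjusted p = 0.0348). Ppara averaged 243 ± 128 CPM in endothelial-like sums of control P10, against 759 ± 312 CPM in cardiomyocyte-like sums. The part of the muscle RNA seen through Ttn in the rises of Ppara, Ppargc1a and Gata4 was not tested.

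In KO P10 against control P10, endothelial-like sums showed 1 rise among 11 lipolysis genes, no change called among 7 entry genes and 1 fall among 20 regulators, beside 2.81% of all genes called. Apoe, the lipoprotein ligand, averaged 443 ± 118 CPM in KO P10 and 153 ± 30.1 CPM in control P10 (log2 fold change 1.49 ± 0.33, adjusted p = 0.0118). Ppara averaged 31.0 ± 8.8 CPM in KO P10 and 243 ± 128 CPM in control P10 (log2 fold change -2.73 ± 0.53, adjusted p = 0.00352). Cardiomyocyte markers took 3.79% to 5.77% of UMIs of endothelial-like sums in KO P10 and 3.54% to 4.63% in control P10. Cardiomyocyte-like sums held 110 ± 37.0 CPM of Ppara in KO P10 and 759 ± 312 CPM in control P10. The part of muscle or free RNA in the endothelial-like values of Ppara and Apoe was not tested. In cardiomyocyte-like sums Ppara fell by 2.77 ± 0.38 (adjusted p = 0.000206) and the fatty acid transporter Slc27a1 by 1.80 ± 0.24 (adjusted p = 0.000186). Lmf1, which folds Lpl in the endoplasmic reticulum, fell by 1.25 ± 0.32 there (adjusted p = 0.015), and Pcsk5 rose by 0.77 ± 0.25 (adjusted p = 0.0485). Apoe rose by 1.28 ± 0.22 (adjusted p = 0.0014) and Hif1a by 1.12 ± 0.24 (adjusted p = 0.00605), while the VEGF co-receptor Nrp1 fell by 1.64 ± 0.25 (adjusted p = 0.000551) and Epas1 by 1.01 ± 0.31 (adjusted p = 0.0347). By list, 2 genes rose and 1 fell of 14 tested for lipolysis, 0 rose and 1 fell of 12 for entry, and 1 rose and 3 fell of 16 regulators in these sums, beside 14.3% of all genes.

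With age in cardiomyocyte-like sums, 5 lipolysis genes rose of 14 tested, 0 entry genes rose and 2 fell of 12, and 5 regulators rose and 0 fell of 16, beside 17.2% of all genes. Pcsk6 rose by 1.53 ± 0.36 (log2; adjusted p = 0.00806) and the lipoprotein receptor Lrp1 by 1.18 ± 0.31 (adjusted p = 0.0148). Scarb1, a receptor for HDL, and Dgat1, which makes triglyceride, fell by 1.03 ± 0.23 (adjusted p = 0.00698) and 1.01 ± 0.26 (adjusted p = 0.0144). Foxo1 rose by 1.57 ± 0.30 (adjusted p = 0.0023), the glucocorticoid receptor gene Nr3c1 by 1.06 ± 0.25 (adjusted p = 0.00793) and Ppara by 1.10 ± 0.35 (adjusted p = 0.0398). Apoe, Sel1l and Rbpj rose by 0.76 ± 0.23 (adjusted p = 0.033), 0.84 ± 0.27 (adjusted p = 0.0384) and 0.86 ± 0.28 (adjusted p = 0.0414).

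Across the 36 sums of 4 classes and 9 libraries, the 8 genes did not share 1 pattern. Fabp4 and Gpihbp1 were most alike, with Pearson's r of 0.94 on log2(CPM + 1), and Tcf15 had r of 0.84 with Fabp4 and 0.85 with Gpihbp1. Fabp5 and Lpl ran opposite at r = -0.64. Among 12367 genes, the 3 most like Fabp4 were Tmem88, Gpihbp1 and Gng11, and those most like Gpihbp1 were Fabp4, Kdr and Ly6c1. The genes most like Tcf15 were Kdr, Gpihbp1 and Chst15 (r from 0.85 to 0.87), those most like Fabp5 were Plk2, H19 and Bnip2 (0.89 to 0.93), and those most like Meox2 were Sparcl1, Nav3 and Ets1 (0.89 to 0.92). Cd36 was most like Magi1, Pkp4 and Cdh13 (0.79 to 0.85), Lpl most like Paqr9, Mfhas1 and Atp2a2 (0.80 to 0.81), and Angptl4 most like Anapc15, Bora and Alad (0.82 to 0.86). These sums share libraries and depth, so the values are descriptions.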

How the data were processed

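The authors deposited UMI counts, whole and not normalized, for each gene and barcode. Per the submitters' processing notes, reads were aligned to mm10 with STAR 2.5.2a. Exonic and intronic reads were counted together, per the file names. Annotation, strand use and the barcode rule were not given in the sources used here.

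Mitochondrial genes, barcodes under 500 UMIs and, per library, the 5% with the highest Scrublet scores were left out of the classes, as were shared barcodes of KO P10 library 2, a choice made after seeing the data. Sums over all barcodes kept every barcode. Clusters (scanpy 1.11.5, igraph 0.11.9, resolution 1.0, 30 components, 15 neighbours, 2000 variable genes) omitted the members and the pathway genes. Names came from marker lists of 13 classes, and the scoring rule was set after seeing the data. A name needed at least 3 markers raised 1.5-fold over the mean of clusters with Malat1 at 40% of the median or more, and clusters under that stayed unnamed. Class sums were tested with edgeR 4.0.16 (R 4.3.3) in 1 fit of 9 libraries, with TMM, filterByExpr and a threshold of 0.05. CPM values are edgeR's, given as mean ± SD. Fits were tested on simulated data. DESeq2 1.42.0 was an alternative.

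Members and lists were chosen with earlier results of these data known. Named pathway genes were up to 4 per direction and list with the smallest p among those called, and likeness used Pearson's r over genes with at least 100 UMIs. Shares of nuclei and pooled levels carry counting error only. A result among the named pathway genes is not reported here.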

Additional observations from a re-analysis of the deposited data

Results flagged for a closer look

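The effect of age (control P10 against control P6) differed between endothelial-like and cardiomyocyte-like sums for 6 of the 8 genes in the interaction test of edgeR, in a fit where 9.9% of all genes passed. The difference between classes in the log2 fold change was -2.91 for Tcf15, -2.44 for Meox2, -2.43 for Gpihbp1, -2.03 for Fabp4, -1.54 for Fabp5 and -1.40 for Cd36. Tcf15 was too low to be tested in cardiomyocyte-like sums alone. Of 7 alternatives, Fabp5 lost the call in 1, with a range of differences from -1.89 to -0.88, and the other 5 genes kept it in all 7. For Meox2 and Cd36 the 2 classes stood on opposite sides of 0, but their endothelial-like values (-0.53 and -0.46) were not called and turned to 0.05 and 0.11 when scaled to endothelial markers. The share of UMIs from endothelial markers fell with age in endothelial-like sums and rose in cardiomyocyte-like sums. Its part in these differences was not tested. Groups of 3 libraries were too small for a check of single outlying libraries.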

How the results depend on the processing

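Of 1292 recomputed values, 1195 kept their direction and side of the threshold, 74 lost a call, 15 gained one and 8 changed sign; another 61 uncalled values changed sign by less than 1 SE and are among the 1195. In endothelial-like sums with age, Fabp4, Fabp5, Gpihbp1, Tcf15 and Lpl were called in all 18 alternatives. Leaving out 1 library gave 5 to 6 members called with age in endothelial-like, 1 to 5 in cardiomyocyte-like, 2 to 5 in fibroblast-like, 2 to 3 in endocardial-like sums and 3 to 5 over all barcodes. For KO P10 against control P10 the ranges were 0 to 0 in endothelial-like, 0 to 2 in cardiomyocyte-like, 0 to 2 in fibroblast-like, 0 to 1 in endocardial-like sums and 0 to 3 over all barcodes, and each 0 outside endothelial-like and endocardial-like sums came without control P10 replicate 3. The knockout count in cardiomyocyte-like sums, 2 as reported, was 1 with nuclei classed by their own marker UMIs, 1 with members kept in the clustering genes and 1 with shared barcodes left out of both KO P10 libraries. In endocardial-like sums, 0 as reported, it was 1 with members kept in the clustering genes. With nuclei of at least 1000 UMIs, fibroblast-like counts were 0 for the knockout (2 as reported) and 2 for age (4 as reported). The count over all barcodes with age, 7 as reported, was 3 with shared barcodes left out of KO P10 library 2, an alternative chosen after seeing the data, as were the others on shared barcodes and the marker scaling.

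Log2 fold changes that changed sign were uncalled. For KO P10 against control P10 they were 0.51 for Gpihbp1 in cardiomyocyte-like and 0.54 for Fabp5 in endothelial-like sums (own marker UMIs), and -0.41 for Gpihbp1 in endothelial-like and 0.063 for Lpl in fibroblast-like sums (at least 1000 UMIs). With age they were 0.048 for Meox2 and 0.11 for Cd36 in endothelial-like sums scaled to endothelial markers. Leaving out 1 library moved Fabp4 with age in cardiomyocyte-like sums between -0.19 and 0.25, and the difference between classes in the knockout effect on Gpihbp1 between -0.014 and 0.71. The causes were not tested.

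Same-numbered libraries did not deviate together (correlations from -0.16 to 0.25), so the numbers were not taken as pairs. With a replicate block the knockout count in endocardial-like sums was 1 and the age count over all barcodes was 6, and no other count of members changed. Low UMI counts limit Angptl4 and Tcf15 most, with 1 to 29 and 2 to 95 UMIs per endothelial-like library.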

Other observations

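Pericyte-like nuclei, which line capillaries from outside, numbered 26 to 100 per library, with fewer than 50 in some, and were not tested. Pooled over libraries, they held 1249 CPM of Lpl in KO P10, 883 CPM in control P10 and 239.6 CPM in control P6. Cd36 was 694 CPM in KO P10, 784 CPM in control P10 and 202 CPM in control P6, and Fabp4 was 858 CPM in KO P10, 779 CPM in control P10 and 666 CPM in control P6. Meox2 was 164 CPM in KO P10, 293 CPM in control P10 and 180 CPM in control P6. An unnamed cluster of 618 nuclei, of which 415 came from KO P10 library 1, held 29.1 CPM of Meox2 in KO P10 and 163 CPM in control P10. These are sums over pooled libraries with no replicate check.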
